A study of Homo sapiens with 2 samples.

Results

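BLID and 9 genes of the BCL2 family were followed in HT1080 cells, a human fibrosarcoma line that carries an activated NRAS gene. The 10 genes are BLID, the anti-apoptotic genes BCL2, BCL2L1 and MCL1, the effector genes BAX and BAK1, and the BH3-only genes BID, BBC3, PMAIP1 and BCL2L11. They are 10 of 18417 genes named on the arrays, each read by its sequence of highest mean level. The list was chosen by gene family and selected on the array difference itself, rLCC111 minus BSA on the log2 scale, with that difference known, so the values below are a description. The cells had been kept for 24 h in wells coated with rLCC111 or in control wells coated with BSA, and 1 Affymetrix Human Gene 1.0 ST array was made per coating. rLCC111 is a recombinant trimer of the coiled-coil parts of the mouse laminin alpha 1, beta 1 and gamma 1 chains, made in a human embryonic kidney line. The study asked which transcripts differ in cells that meet this fragment. Both groups are the same established line, and BSA is the only control protein on the arrays. With 1 array per coating no difference has a replicate check, and no p-value is given.

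The arrays held 33297 sequences, with a median log2 level of 7.12 on rLCC111 and 7.04 on BSA. A gauge of dim signal came from 399 sensory receptor genes, which a fibrosarcoma line is not known to use. Of their mean levels, 95% lay below 6.61, called here the limit of silent genes, and their differences between the arrays had an SD of 0.18 log2. This SD gauges dim signal and is no spread between replicates. The markers were those of a mesenchymal line with some keratins. All 5 mesenchymal markers, VIM and FN1 among them, lay above the limit on both arrays, as did KRT8, KRT18 and KRT19, while CDH1, EPCAM and KRT5 lay below it. None of 5 endothelial markers and 1 of 4 blood markers, CD14 at 6.69 on rLCC111 and 6.68 on BSA, lay above it. Of the 5 mesenchymal markers, 2 were at least 1.5-fold higher on rLCC111, against 1.08% of all genes. These were COL4A1, with a difference of 0.96, and COL4A2, with 0.66. Their part in the results below was not tested.

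The BCL2 family decides whether the outer mitochondrial membrane is breached during apoptosis. BAX and BAK1 form the pores, BCL2 and its anti-apoptotic relatives hold them in check, and BH3-only proteins, which share just the BH3 helix with the rest, antagonise the anti-apoptotic proteins or activate BAX and BAK1 directly. Cytochrome c then leaves the mitochondria and triggers caspase activation through APAF1. In adherent cells, loss of contact with matrix can set off this route, a death called anoikis, in which the BH3-only proteins BIM (gene BCL2L11) and BMF take part. BLID encodes a small protein with a BH3-like motif that induces cell death when overexpressed.

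BLID was the 1 member that differed by at least 2-fold. Its log2 level was 8.18 on rLCC111, against 6.93 on BSA, a difference of 1.25 and a fold of 2.38. Both levels were above the limit of silent genes. This degree of difference in the same direction was met by 0.239% of all genes, 44 in number, and by 2 of the 399 sensory receptor genes, and 21 genes had a larger difference than BLID. Of the 44 genes, 18 were at or below the limit on BSA, and BLID was not one of them. The difference was 1.17 after median centring, 1.22 after removal of a lowess trend and 1.17 after quantile normalization. In a bulk extract, more BLID RNA per cell and more cells with BLID RNA cannot be told apart. The genes whose pair of levels lay nearest to that of BLID, by Euclidean distance over the 2 arrays, were TCP11L2 (0.069), ABCA1 (0.139), NEDD9 (0.185) and LBH (0.235). TCP11L2 was at 8.16 on rLCC111 and 6.87 on BSA. ABCA1, a cholesterol exporter, was at 8.18 on rLCC111 and 7.07 on BSA. NEDD9, a scaffold of focal adhesions, was at 8.15 on rLCC111 and 6.75 on BSA. LBH, a transcriptional regulator known as a WNT target, was at 7.97 on rLCC111 and 7.03 on BSA. This likeness is one of array values alone, over 2 arrays.

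**Figure D1:**
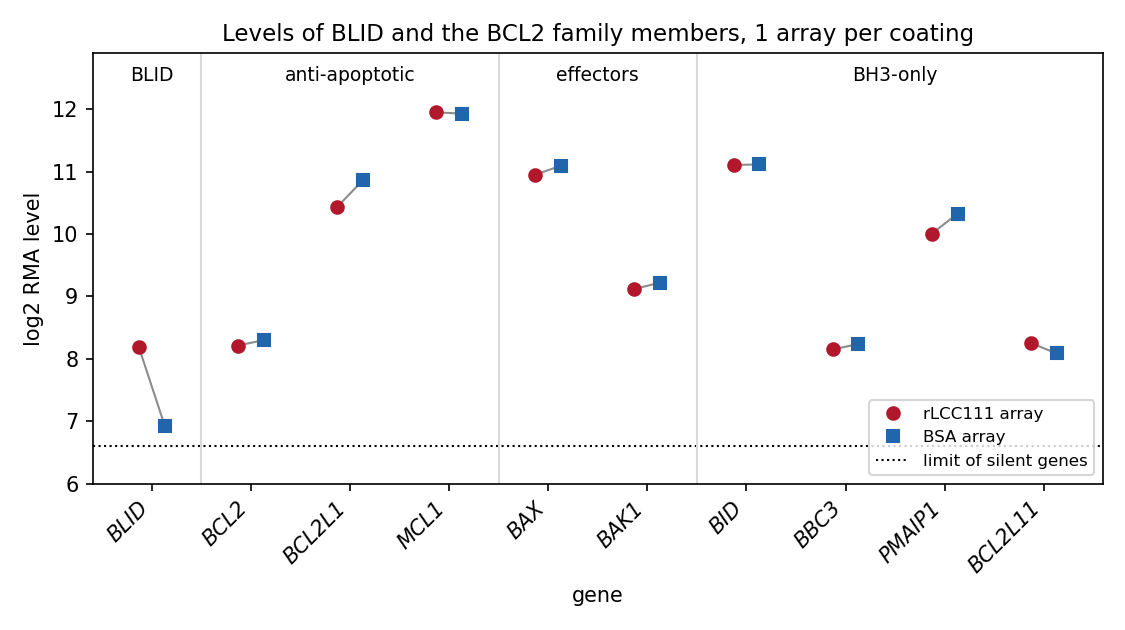
Log2 RMA level (vertical) of each of the 10 genes (horizontal) on the rLCC111 array (red circles) and the BSA array (blue squares), 1 array per coating, with the limit of silent genes at 6.61 (dotted). Levels are to be compared within a gene; BLID has the widest gap, at 8.18 on rLCC111 and 6.93 on BSA.

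BLID was also among the genes that the study measured by quantitative PCR. The study reports the same direction by both methods for its selected genes, with a larger fold for BLID by quantitative PCR. Those measurements are not part of the array files and were not examined here. The primers are printed because they set which stretch of BLID was amplified.
BLID forward primer: ggcagttccatttatccaga
BLID reverse primer: actgtttccttaggcaacat

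BLID lies on chromosome 11 inside the noncoding gene MIR100HG, which is also the host of 3 microRNA genes, MIR125B1, MIRLET7A2 and MIR100 (RefSeq, GRCh38.p14). MIR100HG itself was not analysed here, but all 3 microRNA genes were. MIRLET7A2, the neighbour of BLID on one side, was at a log2 level of 8.94 on rLCC111 and 7.53 on BSA, a difference of 1.40 and a fold of 2.64. MIR125B1, the neighbour on the other side, was at 5.89 on rLCC111 and 5.79 on BSA, and MIR100 was at 4.63 on rLCC111 and 4.33 on BSA. Both of these were below the limit of silent genes on both arrays, so their small differences of 0.10 and 0.30 rest on dim signal. Protein-coding genes on either side of MIR100HG gave no such difference. UBASH3B, a phosphatase gene, was at 10.72 on both arrays, and SORL1 and CRTAM, below the limit, differed by -0.11 and 0.02. BLID and MIRLET7A2 were the 2 genes of 7 plotted along this stretch that were at least 2-fold higher, against 0.239% of all genes. BLID was chosen with its difference known, and the list that holds MIRLET7A2 was drawn up with earlier results of these data known. The count of 2 in 7 is therefore a description and no test against the share of all genes. Apart from BLID and MIRLET7A2, UBASH3B alone lay above the limit of silent genes. The part of RNA from the surrounding MIR100HG transcript in the BLID value was not tested.

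**Figure D2:**
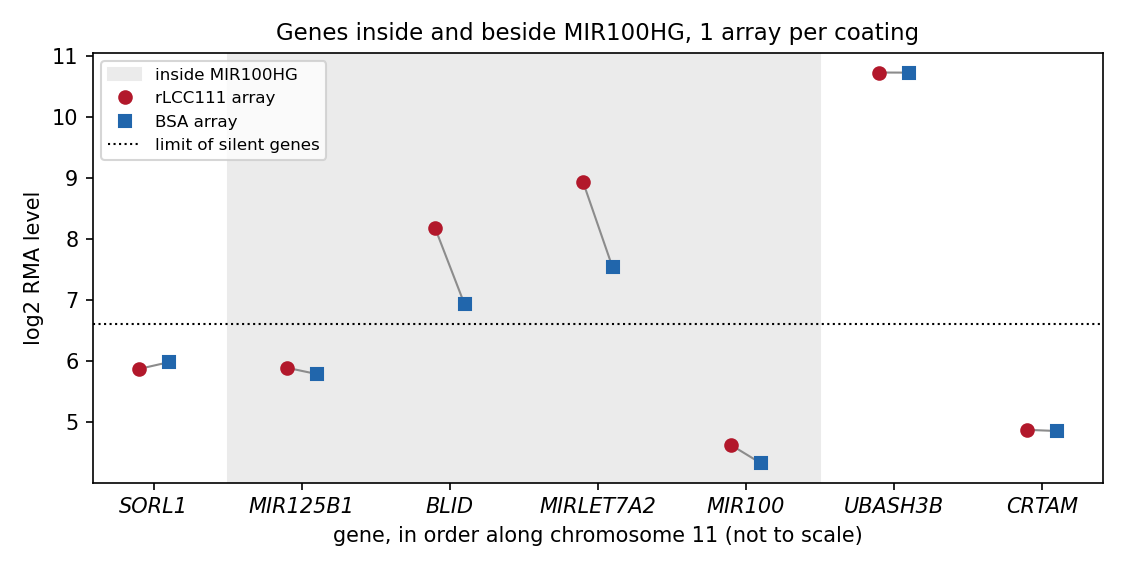
Log2 RMA level (vertical) on the rLCC111 array (red circles) and the BSA array (blue squares) of 7 genes in their order along chromosome 11, with those inside MIR100HG shaded and the limit of silent genes dotted. MIRLET7A2 and BLID have the 2 wide gaps, 1.40 and 1.25 log2, and UBASH3B has none.

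The mature microRNAs of this locus are shown with their seed, bases 2 to 8 from the 5′ end, in capitals, because the seed sets which messages a microRNA can pair with. The sequences are those of RefSeq in GRCh38.p14, from the minus strand at chr11:122146568-122146589, chr11:122152275-122152296 and chr11:122099809-122099830.
hsa-let-7a-5p (MIRLET7A2): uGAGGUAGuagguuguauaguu
hsa-miR-100-5p (MIR100): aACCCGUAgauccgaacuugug
hsa-miR-125b-5p (MIR125B1): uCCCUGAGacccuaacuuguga
The 3 seeds differ from one another. All 12 let-7 genes of the list carry the seed of let-7a-5p, and 10 of them were measured. Of these 10, 9 had a difference above 0 and MIRLET7E was at 5.52 on both arrays, against 46.2% of all genes above 0. This count rests largely on dim signal, since only MIRLET7A2, MIRLET7D, MIRLET7G and MIRLET7I, 4 of the 10, had a brighter array above the limit of silent genes, and 2 had both above it. Beside MIRLET7A2, those at least 1.5-fold higher were MIRLET7F1, at 5.25 on rLCC111 and 4.56 on BSA, both below the limit, and MIRLET7G, at 7.02 on rLCC111 and 6.38 on BSA, where 1.08% of all genes were at least 1.5-fold higher. MIRLET7D was at 6.80 on rLCC111 and 6.39 on BSA. MIRLET7I, above the limit on both arrays, was at 7.70 on rLCC111 and 7.66 on BSA. Mature microRNAs were not measured, since the arrays read gene transcripts.

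No BCL2 family member reached 2-fold in either direction, and 0.0869% of all genes were at least 2-fold lower. Of the 9 members, 2 had a difference above 0 and 7 below 0, against 46.6% of all genes below 0. Their median was -0.09, against 0.00 over all genes. All 9 were above the limit of silent genes on both arrays, each was read by 1 sequence, and none had identical values on both. The middle 90% of all genes ran from -0.28 to 0.31, and 7 of the 9 members lay within it.

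The anti-apoptotic genes BCL2, BCL2L1 and MCL1 each encode a protein that binds and restrains BAX, BAK1 or BH3-only proteins. BCL2L1 had the widest difference of the 9 family members. It was at a log2 level of 10.43 on rLCC111 and 10.86 on BSA, a difference of -0.43 and a fold of 0.743. It was the 292nd lowest difference of 18417. BCL2L1 stayed on the lower side in each scaling, with -0.51 after median centring, -0.39 after lowess and -0.40 after quantile normalization. BCL2, the founding gene of the family, was at 8.21 on rLCC111 and 8.30 on BSA, a difference of -0.09. MCL1, whose short-lived protein restrains BAK1, was at 11.95 on rLCC111 and 11.93 on BSA, a difference of 0.02 that became -0.06 after median centring. The sequence for BCL2L1 covers 2 RefSeq messages, the long anti-apoptotic form and the short pro-apoptotic form, and its value cannot separate them. For MCL1 it covers 3.

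The effectors BAX and BAK1 both had slightly lower levels on rLCC111. BAX was at 10.95 on rLCC111 and 11.10 on BSA, a difference of -0.14, and BAK1 was at 9.12 on rLCC111 and 9.22 on BSA, a difference of -0.10. Both differences lay within the middle 90% of all genes. BAX stood at -0.22 after median centring, which lowers all genes alike, at -0.10 after lowess and at -0.12 after quantile normalization. Of the change in ratio between family members, BCL2 relative to BAX differed by 0.06 log2, and by -0.01 after lowess and -0.04 after quantile normalization, so it had no steady sign. BCL2L1 relative to BAX was lower by all scalings, at -0.28 as deposited, -0.29 after lowess and -0.29 after quantile normalization.

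The BH3-only genes differed among themselves in sign. PMAIP1, which encodes NOXA, an antagonist of MCL1, was at a log2 level of 10.01 on rLCC111 and 10.32 on BSA, a difference of -0.32 and a fold of 0.802. It stayed between -0.40 and -0.29 in the other scalings. BCL2L11, which encodes BIM, was at 8.25 on rLCC111 and 8.09 on BSA, a difference of 0.17 and a fold of 1.12. This was the highest difference of the 9 and lay within the middle 90% of all genes. It was 0.09 after median centring and 0.08 after quantile normalization. BBC3, which encodes PUMA, was at 8.15 on rLCC111 and 8.24 on BSA, a difference of -0.08. BID, which links death receptors to mitochondria once caspase-8 has cut it, was at 11.11 on both arrays. Its difference of -0.01 changed sign with the scaling, at 0.04 after lowess and 0.01 after quantile normalization. The BCL2L11 sequence covers 17 curated RefSeq messages, among them the splice forms of BIM that differ in potency.

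**Figure D3:**
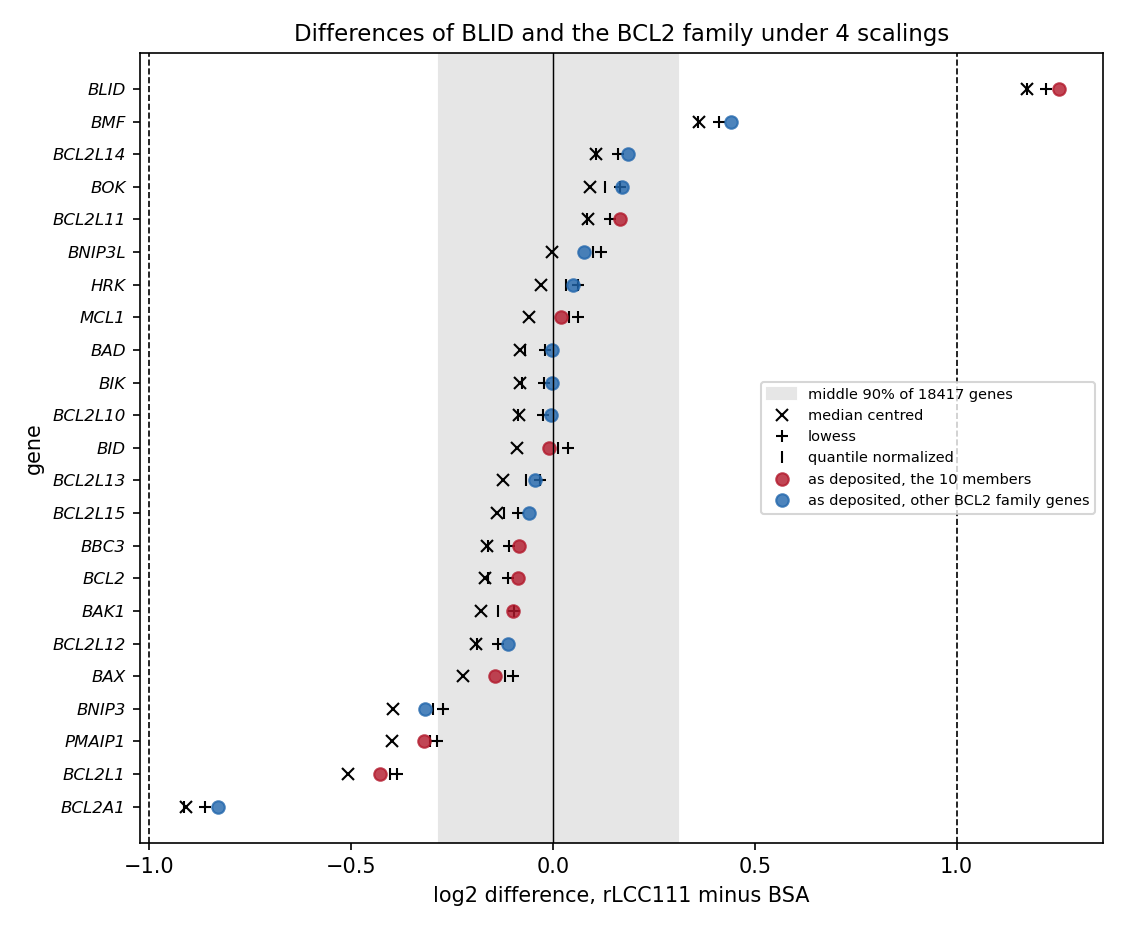
Log2 difference, rLCC111 minus BSA (horizontal), of the 10 genes (red) and 13 other BCL2 family genes (blue), as deposited and under 3 other scalings (black marks), with 2-fold dashed and the middle 90% of 18417 genes in grey. BLID alone lies beyond 2-fold, at 1.25, and BCL2A1, at -0.83, is farthest on the lower side.

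RefSeq promoter sequences matched 8 of the 10 genes, all but BLID and MCL1, with 13 start sites in all, 5 of them of BID. The 250 bases before each start site were searched on both strands for 4 motifs. These were CACGTG, the E-box bound by MYC and related factors, TGACGT, the core of the cyclic AMP response element, TGATGNAA, the composite site of ATF4 and C/EBP, and GGGCGG, the GC box. Matches of different motifs did not overlap in these promoters. CACGTG occurred in 4 of the 13 promoters, those of BAX and BBC3 and 2 of BID, and in 6.34% of all 35116 promoters. BAX had 4 copies, and its promoter is shown with these in capitals, as at chr19:48954625-48954874, plus strand.
BAX promoter: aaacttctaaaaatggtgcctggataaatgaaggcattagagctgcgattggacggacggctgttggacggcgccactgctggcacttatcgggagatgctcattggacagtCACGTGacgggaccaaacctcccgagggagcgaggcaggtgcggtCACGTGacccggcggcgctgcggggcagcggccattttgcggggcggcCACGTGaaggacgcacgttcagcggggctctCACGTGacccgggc
TGACGT occurred in 1 of the 13, that of PMAIP1, once, on the minus strand, and in 7.1% of all promoters. It is in capitals in the PMAIP1 promoter at chr18:59899746-59899995, plus strand, where it reads as its reverse complement. This promoter is shown because PMAIP1 was the lowest of the BH3-only members.
PMAIP1 promoter: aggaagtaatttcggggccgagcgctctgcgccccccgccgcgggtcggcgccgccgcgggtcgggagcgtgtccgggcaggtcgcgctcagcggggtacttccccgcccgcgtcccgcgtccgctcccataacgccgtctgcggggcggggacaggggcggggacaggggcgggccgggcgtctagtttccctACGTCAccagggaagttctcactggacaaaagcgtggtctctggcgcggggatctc
TGATGNAA occurred in 0 of the 13 and in 3.14% of all promoters, and GGGCGG in 8 of the 13, 4 of them of BID, and in 42.6% of all. BCL2L1, the lowest member, had none of the 4 motifs before either of its 2 start sites. A match says only that these letters are present.

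Among 13 other BCL2 family genes, 5 had a difference above 0 and 8 below 0, with a median of 0.00, and none was 2-fold different. BCL2A1, an anti-apoptotic gene known as a target of NF-kB, had the widest difference of the whole family. It was at 6.93 on rLCC111 and 7.76 on BSA, a difference of -0.83 and a fold of 0.562, and 0.543% of all genes were at least 1.5-fold lower. BMF, the BH3-only gene linked to detachment from matrix, was at 7.26 on rLCC111 and 6.82 on BSA, a difference of 0.44 and a fold of 1.36, the highest of the family. It kept a difference of 0.36 after median centring and after quantile normalization. BNIP3, a mitophagy receptor induced by hypoxia, was at 10.97 on rLCC111 and 11.29 on BSA, a difference of -0.32, while its relative BNIP3L differed by 0.08. BOK, a pore-forming relative of BAX and BAK1, was at 9.01 on rLCC111 and 8.84 on BSA, a difference of 0.17. BAD, BIK and BCL2L10 differed by less than 0.01, and the last 2 of these were below the limit of silent genes. HRK differed by 0.05, BCL2L12 by -0.11 and BCL2L13 by -0.04.

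No gene that acts after the mitochondrial step was 2-fold different. Of 11 genes of the apoptosome and of mitochondrial release, 4 had a difference above 0 and 6 below 0, with a median of -0.04. CYCS, which encodes cytochrome c, was at 9.86 on rLCC111 and 10.21 on BSA, a difference of -0.35. SLC25A4, a carrier of ADP and ATP, had -0.26 and HTRA2, a protease released with cytochrome c, had 0.21, while VDAC2, a channel of the outer membrane, had -0.15 and APAF1 had 0.02. Of 9 caspases, 2 had a difference above 0 and 5 below 0, with a median of -0.01. In the 5 with a brighter array above the limit the median was -0.16, and the other 4 were dim and close to 0. CASP4, an inflammatory caspase, was at 9.64 on rLCC111 and 10.01 on BSA, a difference of -0.37. The initiators CASP9 and CASP8 had -0.19 and -0.16, and CASP2 had 0.11. Of 6 inhibitors of apoptosis, 4 were above 0 and 2 below 0, with a median of 0.05. NAIP was at 7.82 on rLCC111 and 7.19 on BSA, a difference of 0.63. This passed 1.5-fold, as did 1.08% of all genes on the higher side. Its other 2 sequences both gave 0.58, but at identical levels, 7.56 on rLCC111 and 6.98 on BSA. They do not count as 2 separate readings. NAIP lies in a duplicated region, so its copies may share probes. BIRC2 had -0.32, BIRC6 0.30, BIRC5, which encodes survivin, -0.22 and XIAP 0.10.

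Of 13 genes of the death receptor pathway, 5 had a difference above 0 and 8 below 0, with a median of -0.08. FAS, the receptor of FAS ligand, was at 9.14 on rLCC111 and 9.59 on BSA, a difference of -0.44. CFLAR, which encodes the caspase-8 inhibitor FLIP, was at 7.43 on rLCC111 and 7.83 on BSA, a difference of -0.40, and its second sequence gave -0.16. TNFRSF21 had 0.23. TNFRSF10D had -0.21 in dim signal, at 6.60 on rLCC111, below the limit of silent genes, and 6.81 on BSA. TNFRSF10B, a receptor of TRAIL, had -0.11 at 11.39 on rLCC111 and 11.49 on BSA.

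Among 9 transcriptional regulators of BH3-only genes, 6 lay below 0 and 3 above it. Their median, -0.24 with the brighter sequence of ATF4, was the lowest of the 10 apoptosis lists plotted. TRIB3, counted in this list and its median though it encodes a pseudokinase, is induced by ATF4 and CHOP. It was at 9.05 on rLCC111 and 9.68 on BSA, a difference of -0.63. DDIT3, which encodes CHOP, was at 7.67 on rLCC111 and 8.22 on BSA, a difference of -0.55. The 2 sequences of ATF4, the activator of both genes, disagreed. The brighter was at 10.94 on rLCC111 and 11.44 on BSA, a difference of -0.50. The other was at 10.90 on rLCC111 and 10.78 on BSA, a difference of 0.12. With the other sequence in its place, the median of this list rises above that of the effector list, -0.12, so its rank rests on that choice. MYC had -0.36 and JUN -0.24, while FOXO1, an activator of BCL2L11, had 0.23. Of 7 ubiquitin ligases and deubiquitinases that act on BCL2 family proteins, 4 were above 0 and 3 below 0, with a median of 0.04. HUWE1, a ligase of MCL1, had 0.14, USP9X, which stabilises MCL1, 0.14, CUL5 -0.18 and MARCHF5, a mitochondrial ligase, -0.09.

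**Figure D4:**
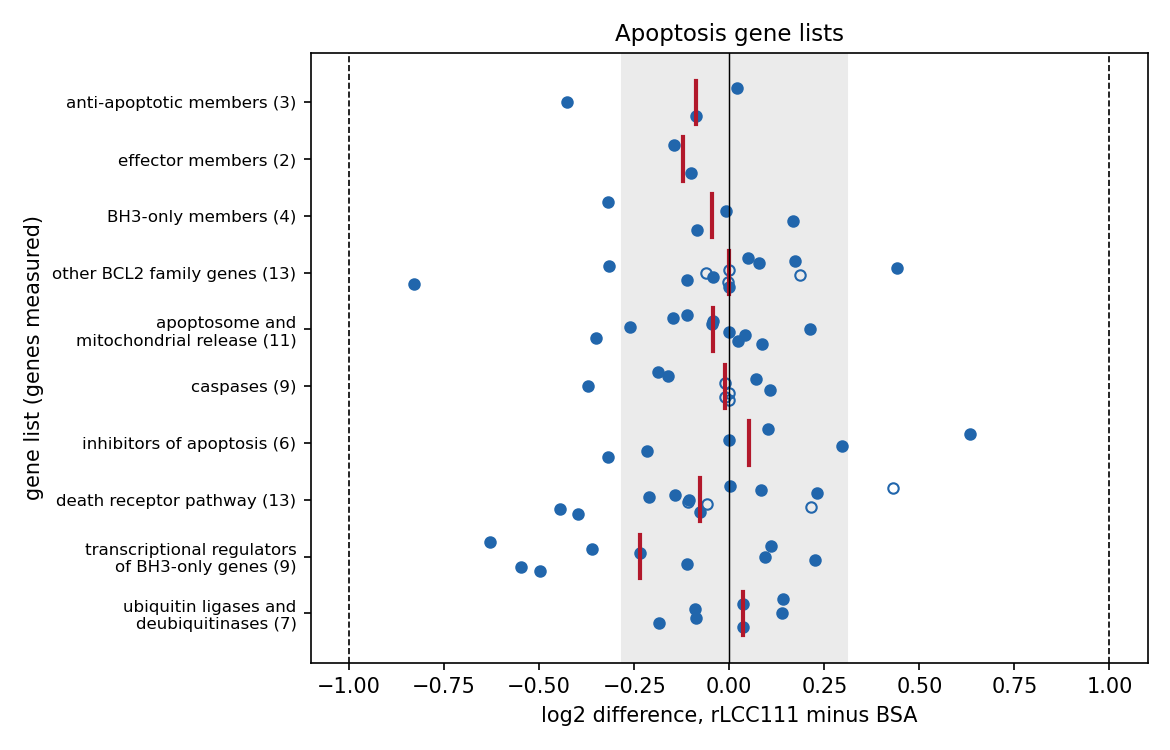
Log2 difference, rLCC111 minus BSA (horizontal), of each gene (points) in 10 apoptosis lists (vertical, with the number measured), 1 array per coating. Open points are genes at or below the limit of silent genes on both arrays, and red bars are list medians. Grey is the middle 90% of all genes and dashed lines are 2-fold. Every point lies within 2-fold. The bar of the transcriptional regulators, drawn with the brighter ATF4 sequence, is farthest from 0, at -0.24.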

How the data were processed

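Total RNA of 1 rLCC111 sample and 1 BSA sample was labelled and hybridized by the authors, who summarized the scans by RMA with the Expression Console software. The deposited values were taken as log2 levels; the version of Expression Console and the array's genome build are not given in the sources here. In the study's methods limma is named, but 1 array per coating leaves no residual degree of freedom, so it was not run, and the number of arrays limits the precision. The values were used as they stand.

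Gene names came from the annotation of the platform, updated to RefSeq of GRCh38.p14: 19460 sequences had 1 symbol, 1754 several and 12083 none, and none with several was used. A gene was given by its sequence of highest mean level. The members and lists were chosen with earlier results of these data known. The text names all members and, in other lists, genes at least 2-fold different and the 4 widest differences above the limit, with all other BCL2 family genes and all genes of the locus open to naming; APAF1, XIAP, TNFRSF10B, JUN, FOXO1, CASP1, CASP14, ENDOG, MIR98, MIRLET7A1, MIRLET7C, MIRLET7E, MIRLET7F1 and MIRLET7F2 were added after their values were seen, as were ratios other than BCL2 to BAX and the promoter motifs. BCL2L2, MIR100HG and the other list genes without a sequence of 1 symbol were not analysed here. Alternatives were median centring, lowess (span 0.2, 3 iterations), quantile normalization, the mean over sequences, 2 filters on the limit and a 1.5-fold threshold. Python 3.11.15, numpy 2.4.6, pandas 2.3.3, statsmodels 0.14.6 and matplotlib 3.10.9 were used.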

Additional observations from a re-analysis of the deposited data

How the results depend on the processing

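Median centring, lowess and quantile normalization left each member on its side of 2-fold. The mean over sequences and both filters on the limit could change nothing, since each member has 1 sequence and lies above the limit on both arrays. None of this stands in for replicates. BLID ranged from 1.17 to 1.25, the median of the 9 BCL2 family members from -0.17 to -0.09, and BCL2 relative to BAX from -0.04 to 0.06, with its sign turned by lowess and quantile normalization. MCL1 changed sign after median centring, and BID after lowess and quantile normalization. The counts of members at least 2-fold higher and lower stayed at 1 and 0, also at 1.5-fold. Median centring lowers every difference by 0.08. No paired analysis was possible because each coating has 1 array. Dim signal limits MIR100, MIR125B1, MIRLET7A1, MIRLET7C, MIRLET7E, MIRLET7F1, MIRLET7F2 and MIR98, which were below the limit on both arrays.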

Other observations

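Of the 18417 genes, 1325, or 7.19%, had exactly the same deposited level on both arrays. None of the 10 members was among them, but CASP1, CASP14, ENDOG and MIRLET7E of the lists were. In the sensory receptor genes, 80 of 399 were identical on both arrays, 198 had a difference above 0 and 121 below 0.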
